A study of Homo sapiens with 4 samples.

Results

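The collagen and laminin genes were described in A549 cells, a human lung adenocarcinoma cell line, after exposure to embelin, a plant benzoquinone known as an inhibitor of the apoptosis inhibitor XIAP. Members were genes whose name in the array files was a collagen chain (COL, a number, A and a number) or a laminin chain (LAMA, LAMB or LAMC and a number). Described here are 52 genes, 41 collagens and 11 laminins, on 102 of 50238 probes. Cells of both groups were grown with 10% serum, moved to 2% serum 12 h before the treatment and collected at 4 h. The control group was 2 untreated samples (0 µM), and the embelin group was 2 samples given 15 µM. Each sample was labelled with Cy3 and hybridized to 1 single-colour Agilent array. The 4 hybridizations shared 1 slide and 1 scan, with the controls at positions 4 and 1 and the embelin samples at positions 2 and 3, so position and treatment cannot be told apart. The labels number the samples of a group as replicates without saying whether they came from separate cultures, so p-values measure only the spread between these samples.

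Collagens are the main fibrous proteins of the extracellular matrix. Their chains wind around each other as trimers, and the class of a chain decides whether the trimer joins a fibril, a sheet-like network in the basement membrane, a beaded filament, an anchoring fibril, or stays in the plasma membrane. Laminins are cross-shaped trimers of an alpha, a beta and a gamma chain that lie in the basement membrane under epithelia. Laminin-332, which holds LAMA3 and LAMB3, is the laminin that ties epithelial cells to the collagen VII anchoring fibrils.

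Signals were normalized log2 intensities, comparable between arrays for a given probe but not between probes. Of the 52 genes, 33 were tested, because the scanner software called a probe of theirs well above background in both replicates of either group. They were 23 of 41 collagens and 10 of 11 laminins. A probe well above background was found for 39 of the 52 genes on the array of control replicate 1, 30 on control replicate 2, 35 on embelin replicate 1 and 37 on embelin replicate 2. Control replicate 2 and embelin replicate 1 thus had fewer detected members, and the same 2 arrays had fewer detected probes in all, 50.3% and 51.2%, against 66.7% and 66.4% on the others. Of 6 epithelial markers (EPCAM, CDH1 and 4 keratins), 6 were well above background on every array. Of 8 fibroblast or smooth muscle markers, which belong to cells that make much collagen, ACTA2, PDGFRA, TAGLN and THY1 were tested, while PDGFRB, DCN, LUM and FAP were not kept. The summed intensity of the 4 tested was 2879 and 3374 in the controls and 2537 and 2442 with embelin. These 4 markers did not move together. THY1 (log2 fold change -0.52) and ACTA2 (-0.41) were lower on both embelin arrays than in both controls, and PDGFRA (1.37) and TAGLN (0.26) were higher. PDGFRA read 4.63 and 3.67 in the controls and 6.17 and 4.87 with embelin. It was well above background in only 1 of the 2 controls, and its other probes were so on no array. The part of these 4 markers in the collagen values was not tested. None of 4 endothelial markers was kept, and of 4 leukocyte markers CD14 and CD3E were.

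**Figure D1:**
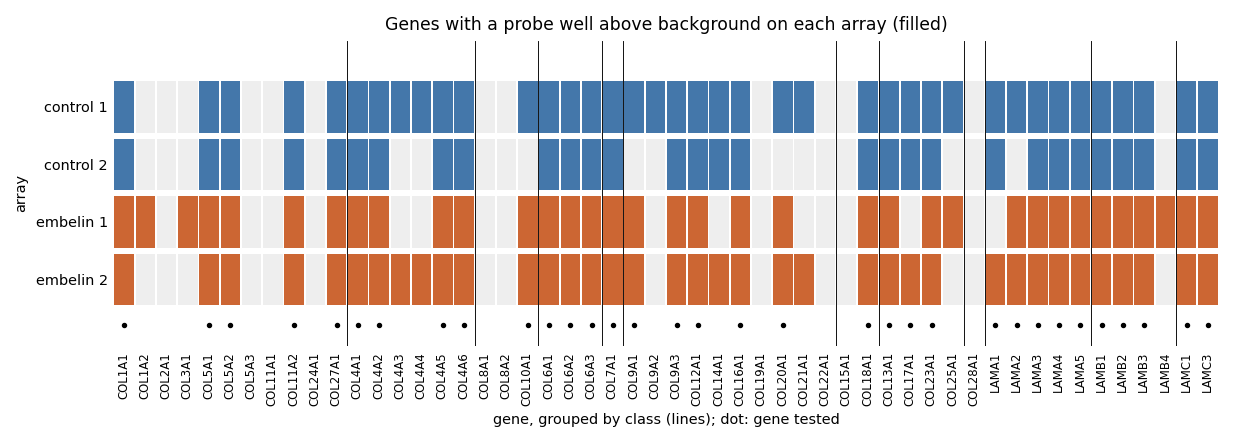
Detection of the 52 genes on the 4 arrays. Columns are genes grouped by class and rows are arrays, a filled cell marks a gene with at least 1 probe well above background there, and a dot marks the 33 genes tested. Filled cells number 39 and 30 in the control rows and 35 and 37 in the embelin rows.

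The 19 genes that were not tested were COL1A2, COL2A1, COL3A1, COL5A3, COL11A1 and COL24A1 of the fibril-forming class, COL4A3 and COL4A4 of the basement membrane networks, COL8A1 and COL8A2 of the short chain networks, COL9A2, COL14A1, COL19A1, COL21A1 and COL22A1 of the FACIT class, COL15A1, COL25A1, COL28A1, and LAMB4. FACIT collagens are the fibril-associated collagens with interrupted helices. For 10 of the 19, no probe was well above background on any array. In COL3A1, the chain of collagen III, 1 of 3 probes read 8.86 on embelin replicate 1, against 3.36 and 3.85 in the controls and 2.86 on embelin replicate 2. In COL1A2, the partner chain of COL1A1, 1 of 2 probes read 8.30 on embelin replicate 1, against 1.65, 3.64 and 1.70 on the other arrays. In LAMB4, 1 of 2 probes read 7.16 on embelin replicate 1 and 3.61 or less on the other arrays. Each of these readings was a single spot on a single array. On that array 1033 probes were well above background there alone, and 578 of them exceeded the next brightest array by at least 3 on the log2 scale. The same count was 388 of 669 on control replicate 2, 1 of 1314 on control replicate 1 and 0 of 1140 on embelin replicate 2.

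After Benjamini-Hochberg adjustment over 17650 genes, limma called 0 of 23 collagens and 0 of 10 laminins, beside 1.81% of all genes tested. At so low a share, 0 calls among 33 genes do not set the members apart. Before adjustment, at the p threshold of 0.05, 4 members were higher with embelin (COL1A1, COL20A1, COL7A1 and COL6A3), beside 8.36% of all genes tested, and 1 was lower (LAMA5), beside 11.1%. At that threshold 2 members passed the methods' t-test. After adjustment that test called 0 of all 17650 genes, so its 0 members do not set them apart. COL1A1 and COL20A1 also differed by 2-fold or more, beside 4.26% of all genes that were higher and 3.99% that were lower by these criteria. Embelin lay above both controls in 8 of the 33 genes and below both in 4, beside 21.1% and 30.7% of the 17298 genes with a value on all 4 arrays. Of these members, COL9A1, COL10A1 and COL20A1 passed the filter only through the embelin arrays and LAMA1 only through the controls. Of the 27 members well above background on all 4 arrays, 5 lay above both controls and 3 below. The median log2 fold change was 0.13 over the collagens and -0.08 over the laminins, with -0.06 over all genes tested. Over the 19 collagens well above background on all 4 arrays it was 0.03, and over the 8 such laminins -0.08. Under alternative processing the collagen median ran from -0.07 to 0.22 and the laminin median from -0.28 to 0.05. In such bulk samples, fewer cells expressing a gene and less RNA per cell cannot be told apart.

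**Figure D2:**
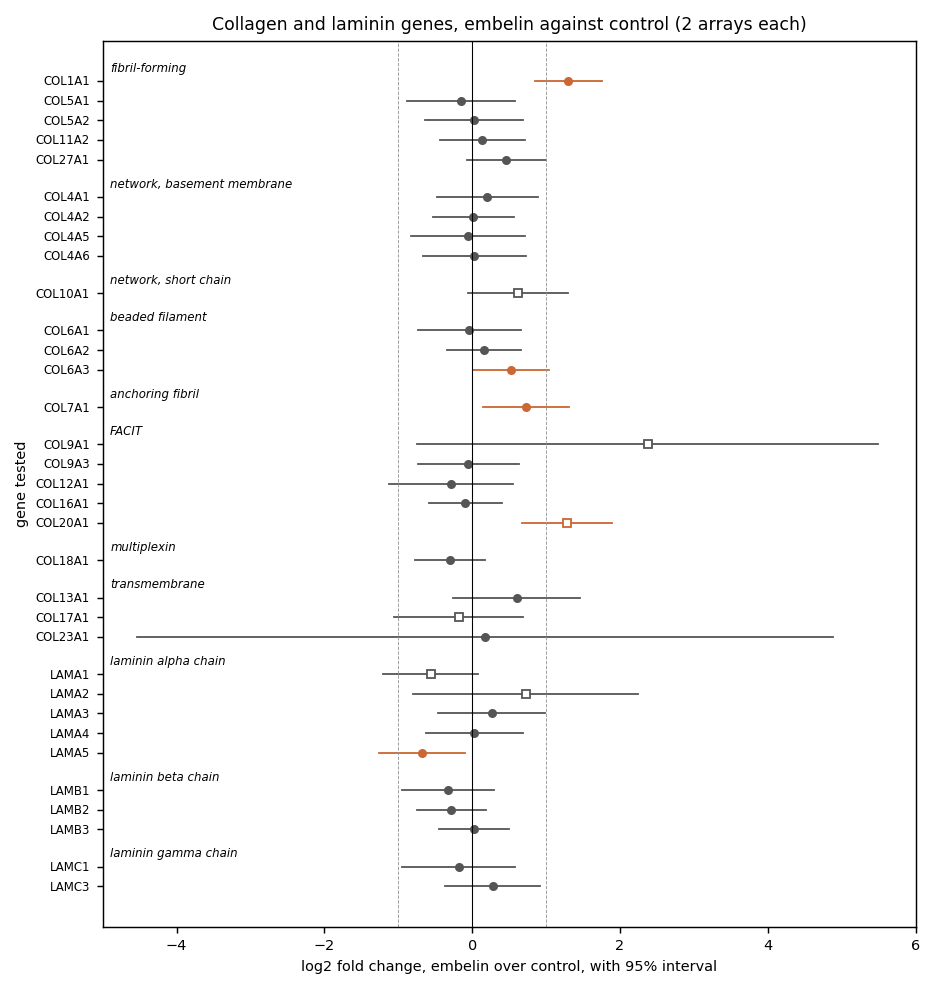
Log2 fold change of embelin over control with its 95% interval for the 33 genes tested, by class. Orange marks an unadjusted limma p under 0.05, open squares mark genes well above background on only 1 array of a group, and dashed lines mark 2-fold. COL1A1 at 1.30 and COL20A1 at 1.28 stand to the right, and LAMA5 at -0.68 to the left.

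Among the fibril-forming collagens, which build the striated fibrils of stroma, 5 of 11 were tested. COL1A1, the main chain of collagen I, read 6.38 and 6.27 in the controls and 7.56 and 7.69 with embelin. Both embelin values lay above both controls, by far more than the replicates differed. The log2 fold change was 1.30 ± 0.17 (SE, n = 2 per group; 2.46-fold), with an adjusted p of 0.0547 by limma. This missed the threshold. The other 4 fibrillar chains lay between -0.15 and 0.46. COL27A1 read 11.80 and 11.58 in the controls and 12.02 and 12.29 with embelin, a log2 fold change of 0.46 ± 0.20 (SE) with an adjusted p of 0.312. For the collagen V chains COL5A1 (-0.15) and COL5A2 (0.02), and for COL11A2 (0.13), the groups overlapped.

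COL1A1 was measured by 3 probes. The probe that stood for the gene, with the highest mean signal, was 1 spot per array, and the other 2 were 11 spots per array each. Their first 30 bases of 60 are shown because the outcome for COL1A1 turns on which probe is used. Capitals mark bases that a probe shares with another probe of the gene, in a run of 59 bases.
COL1A1 probe GT_44k_23_P207520: tctgtccccgggtttcagagacaacttccc
COL1A1 probe GT_HS_44k_0005: gGGTGGGAGGAAGCAAAAGACTCTGTACCT
COL1A1 probe GT_HS_44k_0006: GGTGGGAGGAAGCAAAAGACTCTGTACCTA
The last pair are the same stretch shifted by 1 base and so measure the same target. GT_HS_44k_0005 read 5.50 and 5.34 in the controls and 7.15 and 7.36 with embelin, and GT_HS_44k_0006 read 5.48 and 5.21 against 7.07 and 7.14. All 3 probes were thus higher on both embelin arrays. The log2 fold changes were 1.30, 1.83 and 1.76, but the last pair of probes were well above background in only 1 of the 2 controls (not in control replicate 2), so the sizes of 1.83 and 1.76 and their p-values rest in part on a control at background. With every probe counted on its own, GT_HS_44k_0005 passed after adjustment (adjusted p = 0.048 by limma), while GT_HS_44k_0006 had 0.0515 and GT_44k_23_P207520 had 0.0661. In the deposited table of probe values, which averages outlier spots too, GT_HS_44k_0005 became the brightest probe because it then read 8.40 on control replicate 2, where 2 of its 11 spots were marked as outliers. The log2 fold change of COL1A1 was then 0.36 (adjusted p = 0.893). COL1A2, the other chain of collagen I, was not tested, so no change of the heterotrimer can be given.

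The basement membrane network of collagen IV had no chain past the unadjusted threshold. Of its 6 chains 4 were tested, and at the probes that stood for them the groups overlapped in all 4. COL4A1 read 11.22 and 11.40 in the controls and 11.24 and 11.78 with embelin. COL4A2, its partner in the common collagen IV trimer, read 15.05 and 14.96 against 14.84 and 15.20. Their log2 fold changes were 0.20 (95% interval -0.48 to 0.89) and 0.02 (-0.53 to 0.57). With 2 arrays per group, any change within these intervals remains compatible with the values. COL4A5 and COL4A6, which form another collagen IV trimer together, had log2 fold changes of -0.05 (-0.82 to 0.71) and 0.03 (-0.66 to 0.72). Further probes of these chains, well above background on every array, differed from this. COL4A5 probe GT_44k_24_P290153 read 7.82 and 7.69 in the controls and 7.98 and 8.08 with embelin (0.28), and COL4A6 probe GT_44k_24_P915591 read 7.18 and 6.94 against 7.22 and 7.67 (0.38). Embelin lay above both controls at both, with adjusted p of 0.50 and 0.49 by limma when probes were counted separately. Within each array, the difference between COL4A1 and COL4A2 changed by 0.19 and that between COL4A6 and COL4A5 by 0.08, and the groups overlapped in both pairs.

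COL4A1 and COL4A2 are transcribed away from each other from neighbouring starts, so the stretch between the starts serves as promoter of both. It is shown from RefSeq (GRCh38.p14, chr13:110307158-110307283, plus strand, 126 bases), with capitals marking the only match to the motifs searched, a GC box.
COL4A1-COL4A2: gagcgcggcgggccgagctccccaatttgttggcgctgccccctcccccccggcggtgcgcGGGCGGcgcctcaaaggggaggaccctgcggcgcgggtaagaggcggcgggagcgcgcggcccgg
RefSeq promoter windows of 300 bases, 250 before and 50 after a start, were found for 39 of the 52 genes, 53 windows in all. On either strand GGGCGG, the GC box bound by SP1, was in 58.5% of the 53 windows and in 45.0% of 35116 windows of all genes. TGANTCA, the AP-1 motif, was in 5.7% and 7.7%, ACGTG, the core of the hypoxia response element, in 11.3% and 21.4%, and TATAAA, the TATA box, in 13.2% and 11.5%. None of these motifs contains another, and a match is only a run of letters.

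Of the collagens outside the fibrils and networks, COL7A1, COL20A1 and COL6A3 had an unadjusted p under 0.05, which COL20A1 kept under 13 of 13 alternatives, COL7A1 under 9 of 14 and COL6A3 under 3 of 14. COL7A1, the chain of the anchoring fibrils that laminin-332 binds, read 12.23 and 12.23 in the controls and 12.75 and 13.17 with embelin. Its log2 fold change was 0.73 ± 0.21 (SE, n = 2 per group; 1.66-fold), with an adjusted p of 0.186 by limma. COL20A1, a FACIT collagen, read 5.76 and 5.47 in the controls and 6.72 and 7.07 with embelin, a log2 fold change of 1.28 ± 0.22 (SE) with an adjusted p of 0.0836. Both embelin values lay above both controls, but the gene was well above background in only 1 of the 2 controls. A further probe of COL20A1, not kept by the filter, differed by 0.29.

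COL9A1, a chain of collagen IX of cartilage and cornea, had the largest fitted value of the 33 genes, though it was well above background in only 1 of the 2 controls. It read 5.07 and 4.25 in the controls and 8.61 and 5.45 with embelin, so the mean rests on embelin replicate 1, where the probe was a single spot. The log2 fold change was 2.37, its 95% interval -0.75 to 5.49, and without that array 0.79, both set in part against control replicate 2, which was at background. COL9A3, which assembles with COL9A1, read 7.48 and 7.04 in the controls and 7.02 and 7.39 with embelin (log2 fold change -0.05), and COL9A2 was not tested. COL12A1 and COL16A1, the remaining FACIT chains tested, lay at -0.29 and -0.10 with overlapping groups.

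Collagen VI builds the beaded filaments around cells, and all 3 of its chains named on the array were tested. COL6A3 read 6.34 and 6.23 in the controls and 6.95 and 6.67 with embelin, a log2 fold change of 0.52 ± 0.19 (SE) with an adjusted p of 0.249 by limma. COL6A1 read 12.27 and 12.71 against 12.26 and 12.64, and COL6A2 read 7.86 and 7.62 against 7.83 and 7.96. Their log2 fold changes were -0.04 and 0.16, and the groups overlapped. A further kept probe of COL6A2, GT_44k_23_P310956, read 7.44 and 7.29 against 7.68 and 7.84, a difference of 0.39 without overlap (adjusted p = 0.376 by limma with probes counted separately). The within-array difference of COL6A3 and COL6A1 overlapped between the groups as well. COL10A1, a short chain network collagen of growth cartilage, read 5.90 and 5.35 against 6.23 and 6.27 (log2 fold change 0.62, adjusted p = 0.287). It was not well above background in control replicate 2. COL18A1, whose cleavage gives endostatin, read 16.12 and 16.19 against 15.76 and 15.96. Both embelin values were lower, but the log2 fold change of -0.30 had a 95% interval of -0.77 to 0.18. At a further kept probe of COL18A1 the difference was -0.28, with overlapping groups.

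Of the transmembrane collagens, COL13A1 read 8.05 and 8.10 in the controls and 8.29 and 9.07 with embelin, a log2 fold change of 0.60 (adjusted p = 0.387). A further kept probe of COL13A1 differed by 0.35, with overlapping groups. COL17A1, the hemidesmosome collagen that sits beside laminin-332 in skin and airway, lay at -0.18 with overlapping groups. For COL23A1 the replicates of each group differed more than the groups did. It read 4.67 and 8.25 in the controls and 8.34 and 4.93 with embelin, high on control replicate 2 and embelin replicate 1, the arrays with fewer detected probes.

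**Figure D3:**
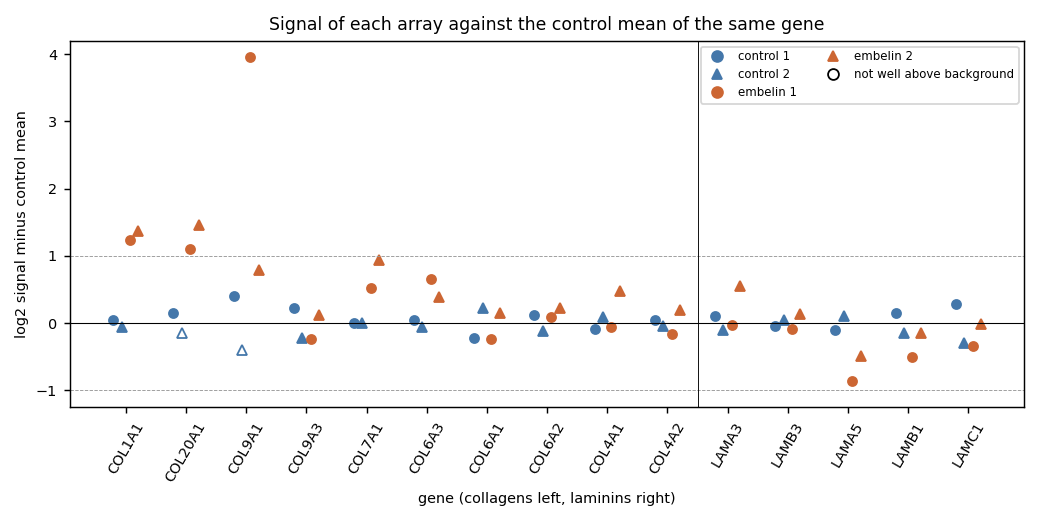
Signal of each array minus the control mean of the same gene (log2) for 15 genes. Blue marks controls and orange embelin, circles replicate 1 and triangles replicate 2, and open symbols are not well above background. COL1A1, COL20A1, COL7A1 and COL6A3 have both embelin symbols above both controls, LAMA5 has both below, and COL9A1 has embelin replicate 1 far above the other arrays.

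Of the laminins, 10 of 11 chains were tested, 5 with a higher and 5 with a lower mean in embelin. In none of the 10 did both embelin values lie above both controls, and in 3 (LAMA1, LAMA5 and LAMB2) both lay below, beside 21.1% and 30.7% of all genes. The 3 of 10 is about the share over all genes, and LAMA1 passed the filter only through the controls. LAMA3 and LAMB3, chains of laminin-332, did not separate. LAMA3 read 10.28 and 10.08 in the controls and 10.16 and 10.74 with embelin (log2 fold change 0.26, 95% interval -0.46 to 0.98). LAMB3 read 15.16 and 15.24 against 15.12 and 15.34, a log2 fold change of 0.02 (-0.45 to 0.50). Within each array, the difference of LAMB3 and LAMA3 changed by -0.24, and the groups overlapped.

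Promoter windows of LAMA3 and LAMB3 each held the AP-1 motif, which marks them among the 3 members with it (the remaining member is COL10A1). They are shown as the 150 bases before the start from RefSeq (GRCh38.p14), with motif matches in capitals. LAMA3 lies at chr18:23872870-23873019 on the plus strand. LAMB3 lies at chr1:209651375-209651524 on the minus strand, and is 1 of the 3 starts listed for the gene.
LAMA3: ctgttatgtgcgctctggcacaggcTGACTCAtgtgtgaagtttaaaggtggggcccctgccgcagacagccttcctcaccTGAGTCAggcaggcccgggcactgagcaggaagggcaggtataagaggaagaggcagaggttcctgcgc
LAMB3: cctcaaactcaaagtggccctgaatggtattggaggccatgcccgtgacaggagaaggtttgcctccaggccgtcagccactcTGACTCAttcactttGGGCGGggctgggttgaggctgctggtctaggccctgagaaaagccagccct
The AP-1 motif stands 125 and 69 bases before the LAMA3 start and 67 bases before the LAMB3 start. A GC box also stands 52 bases before that start of LAMB3. COL1A1 and COL20A1 had no window in the table used.

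Among the laminin alpha chains, which carry the receptor-binding end, LAMA5 was the one with an unadjusted p under 0.05 at the probe that stood for the gene, which it kept under 8 of 14 alternatives. It read 11.98 and 12.17 in the controls and 11.21 and 11.58 with embelin, so both embelin values lay below both controls. The log2 fold change was -0.68 ± 0.21 (SE, n = 2 per group), 1.60-fold lower, with an adjusted p of 0.207 by limma. LAMA5 forms laminin-511 of mature epithelial basement membrane with LAMB1 and LAMC1, both of whose groups overlapped. LAMB1 read 14.96 and 14.66 in the controls and 14.30 and 14.66 with embelin (log2 fold change -0.33). LAMC1 read 13.04 and 12.46 against 12.40 and 12.73 (-0.18). LAMA5 minus LAMB1 changed by -0.35 and LAMA5 minus LAMC1 by -0.50, without overlap. Only the change in such a difference has a meaning, since probes are not on a common scale. By an exact two-sided permutation test each gave p = 0.333, the smallest that 2 arrays against 2 allow, with an adjusted p of 0.762 over the 8 chain pairs compared. LAMA1 read 5.72 and 6.14 against 5.22 and 5.51 (log2 fold change -0.56, adjusted p = 0.304), and was well above background on 1 of the 2 embelin arrays. LAMA2, the alpha chain of muscle laminin, read 5.33 and 5.51 against 6.90 and 5.38, and its mean rests on embelin replicate 1. Without that array its log2 fold change turned from 0.72 to -0.04. LAMA2 was not well above background in control replicate 2.

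LAMA4, the alpha chain of vessel laminins, differed between its probes. The probe that stood for the gene read 9.70 and 9.32 in the controls and 9.36 and 9.71 with embelin, a log2 fold change of 0.03. The other probes overlapped each other by 59 bases and gave -0.77 and -0.71. Their first 30 of 60 bases are printed for comparison, with shared bases in capitals.
LAMA4 probe GT_44k_23_P133656: gggtggaagctttcatcgagttgaacagga
LAMA4 probe GT_HS_44k_1702: aCCTGGGCTAGGTCAGTTCGGAAACTTGAA
LAMA4 probe GT_HS_44k_1703: CCTGGGCTAGGTCAGTTCGGAAACTTGAAA
GT_HS_44k_1702 read 7.24 and 7.34 in the controls and 6.30 and 6.73 with embelin, and GT_HS_44k_1703 read 7.06 and 7.03 against 6.07 and 6.61. Counted as separate probes both had an unadjusted p under 0.05, with adjusted p of 0.203 and 0.268 by limma. GT_HS_44k_1703 was not well above background on embelin replicate 1, so its -0.71 and p-value rest in part on a reading at background. A further kept probe each of LAMA1 and LAMA3 lacked a value on 1 array because its spot was an outlier. Embelin replicate 2 minus control replicate 1 was -0.74 at the LAMA1 probe and 0.85 at the LAMA3 probe. Both probes passed the filter only because the outlier spot left out had counted as well above background. Over the mean of its probes LAMA4 had a log2 fold change of -0.48, so its direction depends on the probe.

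No beta chain had an unadjusted difference. LAMB2 was measured by 3 probes that gave -0.28, -0.28 and -0.30, and at the probe that stood for the gene read 13.95 and 13.89 against 13.54 and 13.73. Both embelin values lay below both controls, yet the 95% interval of -0.75 to 0.18 included 0. LAMB1, the beta chain common to many laminins, overlapped between groups. LAMC3 had a higher mean at its brightest probe (0.28) and a lower one at another kept probe (-0.28). Of the 78 pairs of probes for the same member, 5 shared a run of 39 to 59 bases, in COL1A1, COL11A2, COL25A1, LAMA4 and LAMB2, and these probes are not independent of each other. The remaining pairs shared at most 21 bases.

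**Figure D4:**
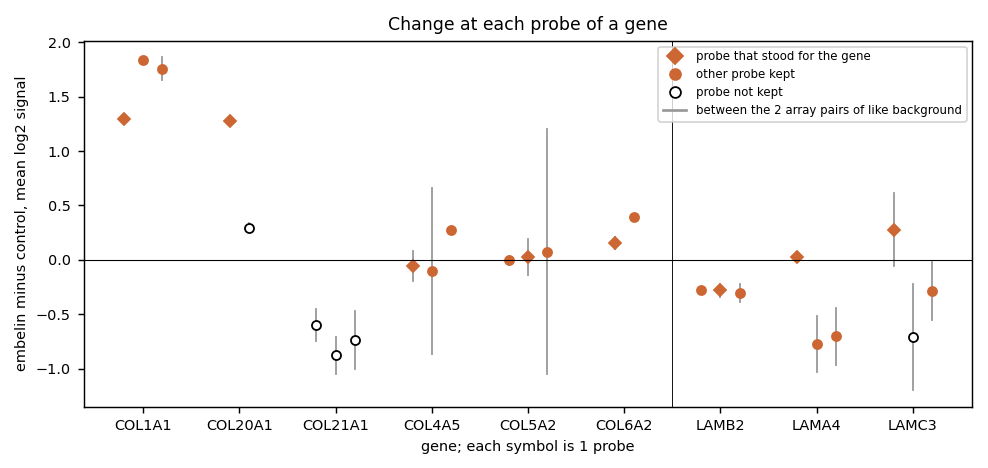
Mean embelin minus mean control (log2) at each probe of 9 genes, with bars between the values of the 2 array pairs of like background. Diamonds mark the probe that stood for the gene, orange circles other kept probes, open circles probes not kept. All 3 COL1A1 probes lie above 1, the 3 LAMB2 probes lie at -0.28 to -0.30, and the LAMA4 probes divide between 0.03 and -0.77.

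Genes that work with collagens and laminins were taken from a list of 50, of which 49 were named on the array and 38 tested. None passed after adjustment (limma), while 6 were higher and 0 lower with an unadjusted p under 0.05, beside 8.36% and 11.1% of all genes tested. Of the collagen receptors 4 of 8 were tested. ITGA2, the alpha chain of the collagen receptor of epithelia, read 11.39 and 10.53 in the controls and 13.44 and 12.84 with embelin. Its log2 fold change was 2.18 ± 0.40 (SE, n = 2 per group; 4.54-fold), with an adjusted p of 0.0884, and it was well above background on every array. Further probes of ITGA2 were also higher with embelin, but were not well above background in every control. All 7 laminin receptor genes were tested, and ITGA7 was the 1 with an unadjusted p under 0.05 (log2 fold change 0.82, adjusted p = 0.133). ITGA3, ITGA6, ITGB1 and ITGB4, the chains of the laminin-332 receptors, lay between -0.21 and 0.17.

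Other basement membrane genes had a median log2 fold change of -0.19 over the 9 of 12 tested, with 7 lower and 2 higher means. NID1, the linker of laminin and collagen IV, was not well above background in either control. It read 3.94 and 3.89 there and 8.30 and 4.48 with embelin (adjusted p = 0.400 by limma). Each control was then set to the lowest signal called well above background on its array, or to its reading where higher. Embelin was 2.81-fold above that mean. This is no strict bound, since on control replicate 1 the undetected reading of 3.94 itself exceeded that lowest signal, 3.83. The 2.81-fold value rests on embelin replicate 1, since embelin replicate 2 at 4.48 lay below the control mean so set, 4.90. The 6 tested genes of procollagen processing and secretion lay between -0.26 and 0.28, with the collagen chaperone SERPINH1 at -0.26.

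Of 12 transcription factors known to act on collagen or laminin genes, all were tested and 9 had a higher mean in embelin. The median was 0.33. ETS1 read 6.83 and 6.86 in the controls and 8.10 and 9.01 with embelin (log2 fold change 1.70, adjusted p = 0.108). RUNX1, whose factor binds DNA with CBFB, read 8.71 and 8.26 against 9.80 and 9.69 (1.26, adjusted p = 0.0866), though a further kept probe differed by 0.16. SOX9, the factor of cartilage collagens, read 8.91 and 8.78 against 9.90 and 10.13 (1.17, adjusted p = 0.0704). CEBPB differed by 0.64 (adjusted p = 0.172), and SP1, the GC box factor, by -0.13. Both embelin arrays lay above both controls in 7 of the 12 factors, ETS1, RUNX1 and SOX9 among them. In 3 (SP1, TWIST1 and YBX1) both lay below. The shares over all genes were 21.1% and 30.7%.

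**Figure D5:**
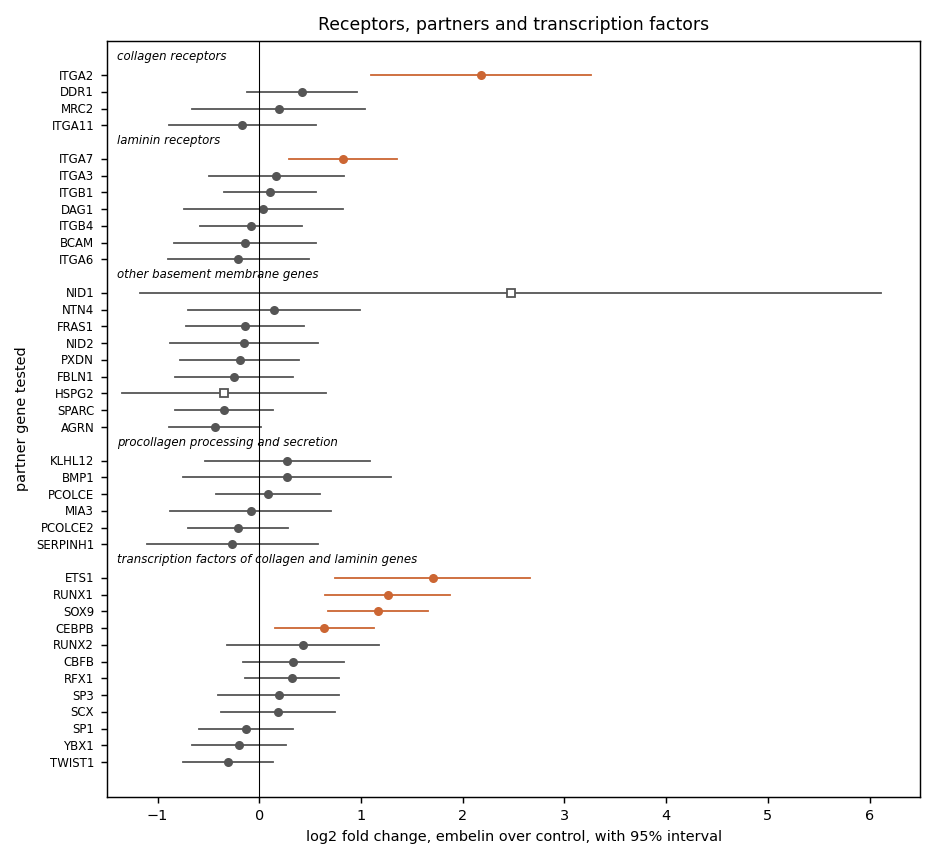
Log2 fold change with 95% interval for the 38 partner genes tested, in 5 lists. Orange marks an unadjusted limma p under 0.05 and open squares genes not well above background on every array. ITGA2 at 2.18 and ETS1 at 1.70 stand highest among the orange points, and the genes of procollagen processing lie between -0.26 and 0.28.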

How the data were processed

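Total RNA of 2 control and 2 embelin-treated samples was labelled with Cy3 on single-colour Agilent arrays. The authors deposited the scanner's intensity values (Feature Extraction 10.7.3.1, array design build hg18, per the file headers), already background-subtracted, and a table of probe intensities. Here each array was shifted to a common 75th percentile, with a floor of 1, then log2 transformed. Outlier spots were left out (0 to 5 of 122 member spots per array), and spots with the same probe were averaged. A probe was kept if well above background in both replicates of either group, and the brightest stood for its gene. The groups were tested by limma 3.58.1 (lmFit, eBayes; R 4.3.3), with Benjamini-Hochberg adjustment over all 17650 genes tested. The number of arrays limits precision, with a median half-width of 0.65 (log2) of the members' 95% intervals. The fit was tested on simulated data whose changes were larger than any member's and whose noise was independent between arrays. That test does not show how the fit does on changes of the sizes reported. The rule found 53 genes, of which 1 is not reported here and is left out of every count of members. Members keep the names in the files. By accession, 2 further probes are collagens (COL26A1 and COL6A5) and lie outside the rule. Every other member was named, with array values for those changed 2-fold or with an unadjusted p under 0.05, and for the tested chains of the same trimer. Partner genes changed 2-fold were named with values. Members, lists and tests were chosen with earlier results of these data known. Alternatives covered background correction, normalization, the deposited table, filters, probes, variance model, pairing, the methods' t-test and leaving out each array. Those for partner genes were added after the values were seen.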

Additional observations from a re-analysis of the deposited data

How the results depend on the processing

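Under the 14 alternatives that give 1 value per gene, 421 of 456 member values kept their sign and 35 turned, none with an unadjusted p under 0.05 on either side. With every probe on its own, LAMA4 (0.03 as reported) had probes at -0.77 and -0.71 with an unadjusted p under 0.05. The probe at -0.71 was not well above background on embelin replicate 1. The unadjusted calls of COL6A3, LAMA5 and COL7A1 were kept under 3, 8 and 9 of the 14. The methods' t-test lost all 3 of these, and the crossed pairing lost COL6A3 and LAMA5. Without control replicate 1 or control replicate 2 all 3 were lost, without embelin replicate 1 COL6A3 and LAMA5, and without embelin replicate 2 COL6A3 and COL7A1. After adjustment limma called 1 of 19 collagens (COL1A1) with a filter of all 4 arrays. With every probe on its own it called 1 of 36 collagen probes, also of COL1A1. In the other fits of all 4 arrays 0 were called, and 0 laminins in any of these fits. Over all genes, that filter gave 419 calls higher and 345 lower among 15542 tested, against 221 and 99 among 17650 as reported. Every probe on its own gave 217 and 65 among 26146 probes. Without a filter, with either pairing as a block and by the methods' t-test, 0 of all genes were called. The 0 members there are no result about the members. The collagens past 2-fold with an unadjusted p under 0.05, 2 as reported, were 1 in the deposited table (COL1A1 lost) and 1 with the filter of all 4 arrays (COL20A1 left out), 0 by normexp, and 4 probes with every probe on its own. With an array left out the collagens were 2 to 3, and the laminins, 0 as reported, were 0 to 1 (LAMA2 without embelin replicate 2). The partner genes called, 0 as reported, were 3 with the filter of all 4 arrays, 2 by normexp and 5 by eBayes with trend and robust. Calls over all 17650 genes rose too, to 452 higher and 271 lower by normexp. By eBayes with trend and robust they were 566 and 495. The cause of these changes was not tested. With the replicate number as a block (replicate block) limma called 0 of all 17650 genes. Its 0 collagens, 0 laminins and 0 partner genes thus do not set these apart. With that block 3 collagens were past 2-fold with an unadjusted p under 0.05, with COL9A1 added. Deviations from the group mean correlated at 0.18 between samples with the same number. With 2 samples per group, crossed numbers must give the same value with the opposite sign (-0.18), so this is 1 result. Over only 2 pairs it cannot establish a pairing, and the labels give only the shared number.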
